A study of Rattus norvegicus with 16 samples.

Results

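The genes for the lung surfactant proteins, *Sftpc*, *Sftpb*, *Sftpa1* and *Sftpd*, and for the club cell secretory protein, *Scgb1a1*, were followed in PCCl3 cells, a continuous rat thyroid follicular cell line, after siRNA against *Pax8*. The 5 genes were picked by name with the measured log2 ratios of these arrays in view, *Sftpc* for its rise, so their ratios are given as a description with no test. A probe was assigned to them when the RefSeq accession printed on the array is that of the gene, which gave 6 of 41012 probes, or 5 of the 9094 genes that could be named. RNA of cells transfected by Lipofectamine 2000 with *Pax8* siRNA (si*Pax8*) was hybridized in competition with RNA of wild type (wt) cells or of cells transfected with scrambled siRNA (siScramble), both siRNAs at 10 ng/ml. All cells were the same line, grown with thyrotropin and 5 further hormones, and RNA was isolated 48 hours after transfection. Each comparison had 4 biological replicates, each on a pair of 2-colour Agilent rat arrays with the dyes swapped, so 8 arrays a comparison and 16 in all. The labels call the non-siRNA cells wild type, while the study's methods list cells treated with lipofectamine alone among the conditions, so whether these cells saw the transfection reagent is not settled. The design names 4 si*Pax8* samples for both comparisons, which may therefore share them.

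Surfactant is the lipid and protein film that keeps alveoli from collapsing. *Sftpb* and *Sftpc* encode its hydrophobic proteins SP-B and SP-C, which are cut from larger precursors in alveolar type 2 cells and help phospholipid spread at the surface, while *Sftpa1* and *Sftpd* encode the collectins SP-A and SP-D, which bind sugars on microbes. *Scgb1a1* encodes a small secreted protein of club cells in the airways. All are genes of lung epithelium known to be under the control of *Nkx2-1*, a homeodomain factor that lung and thyroid follicular cells share. In the thyroid *Nkx2-1* acts together with the paired domain factor *Pax8* on *Tg*.

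The bases just upstream of the gene are shown for the members found in the promoter table, *Sftpb*, *Sftpa1* and *Scgb1a1*, because Nkx2-1 is the factor for which this set was put together. The sequences are from RefSeq (GRCr8), run 5′ to 3′ on the strand of the gene and end where its gene model begins. *Sftpb* is at chr4:105917338-105917494 (plus strand), *Sftpa1* at chr16:17042064-17042263 (plus strand) and *Scgb1a1* at chr1:215409687-215409886 (minus strand). Capitals mark CTCAAG, a core letter string of Nkx2-1 sites, or CAAGTG, a core string of the Nkx2 family, on either strand.
*Sftpb*: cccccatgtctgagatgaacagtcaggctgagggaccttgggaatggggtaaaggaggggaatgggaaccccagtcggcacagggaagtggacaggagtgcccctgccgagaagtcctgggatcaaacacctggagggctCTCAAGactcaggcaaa
*Sftpa1*: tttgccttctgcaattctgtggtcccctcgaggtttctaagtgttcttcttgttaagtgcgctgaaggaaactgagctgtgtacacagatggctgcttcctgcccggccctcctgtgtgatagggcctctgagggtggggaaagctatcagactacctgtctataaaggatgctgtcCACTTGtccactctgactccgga
*Scgb1a1*: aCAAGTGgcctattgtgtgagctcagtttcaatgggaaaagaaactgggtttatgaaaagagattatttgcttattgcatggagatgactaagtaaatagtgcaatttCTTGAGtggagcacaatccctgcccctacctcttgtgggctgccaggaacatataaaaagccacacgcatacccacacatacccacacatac
Motifs were searched in the 250 bases before the start that the promoter table uses, which is where the gene model begins for *Sftpa1* and *Scgb1a1*, while for *Sftpb* the gene model begins 93 bases before it. *Sftpb* held CTCAAG at 110 to 105 bases before the table's start, which is 17 to 12 bases before the gene model, and again at 25 to 20 bases, inside the gene model and not printed. *Sftpa1* held CACTTG, which is CAAGTG on the opposite strand, at 23 to 18 bases. *Scgb1a1* held CTTGAG, which is CTCAAG on the opposite strand, at 92 to 87 bases and CAAGTG at 199 to 194 bases. Among 27457 promoters in windows of the same 250 bases, 13.3% held CTCAAG and 11.7% held CAAGTG, counted on both strands, and the strings can overlap each other by their shared CAAG. A Foxa string, TGTTTGC, was found on the opposite strand in *Sftpb* at 98 to 92 bases before the table's start, running past the printed end into the gene model, and is in 4.09% of promoters. Neither TGTTTAC (3.25% of promoters) nor the Pax string GCGTGAC (1.85%) was found in these windows. Such matches are letters only, and the arrays measured no binding.

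The target of the siRNA was read first. *Pax8* (A_43_P12538) was well above background on all arrays, and its log2 ratio of si*Pax8* over wt was -0.84, -0.57, -0.59 and -0.26 in replicates 1 to 4, with a mean of -0.56 ± 0.24 (SD, n = 4; limma adjusted p = 0.000496), a call lost without replicate 3 (adjusted p = 0.00576). Over siScramble it was -0.58, -0.29, -0.12 and -0.01, with a mean of -0.25 ± 0.25 (SD, n = 4), which did not pass the threshold of 0.005 (limma adjusted p = 0.147). All ratios given here are positive where RNA was higher in si*Pax8* cells, as the dye labels set it. This is the sign of the ratios in the study's supplementary table and the opposite of how its text words the total counts of down- and up-regulated probes. For single genes, such as *Ccl2* (2.39 over wt) and *Dio1* (-0.80 over wt), the text uses the direction given here. The cells carried the thyroid markers: *Tg*, *Slc5a5*, *Tshr*, *Pax8*, *Nkx2-1* and *Foxe1* were each well above background on all 8 arrays of both comparisons in every cell population. The label well above background is the scanner software's own flag for a spot. Across arrays it was given to 54 to 60.8% of spots in Cy3 and 52 to 59.1% in Cy5. The raw measure beside it here is the mean spot intensity over the median local background, which at the 153 negative control spots had array medians of 0.87 to 1.18 in Cy3 and 1.018 to 1.103 in Cy5, and array 95th percentiles of up to 1.93 and 1.54.

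*Sftpc*, the precursor of SP-C, was the member with the strongest signal, and that signal was found mainly in si*Pax8* cells. In the si*Pax8* channel its probe (A_42_P536702, NM_017342) lay between 8.49 and 17.7 times background, with a median of 14.9, on the 8 arrays with wt. On the 8 arrays with siScramble the si*Pax8* channel lay between 9.98 and 21.6 times background, with a median of 15.8. The spot was well above background on all of these 16 arrays. In wt cells the probe read 1.29 to 1.86 times background with a median of 1.35, and it was not well above background on any of 8 arrays, although the software's test of spot against local background was passed on all 8. In siScramble cells it read 1.68 to 3.44 times background with a median of 2.07, and it was well above background on 8 of 8 arrays. No si*Pax8* reading overlapped any reading of either control. No spot of any member was saturated or marked as an outlier on the 16 arrays.

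**Figure D1:**
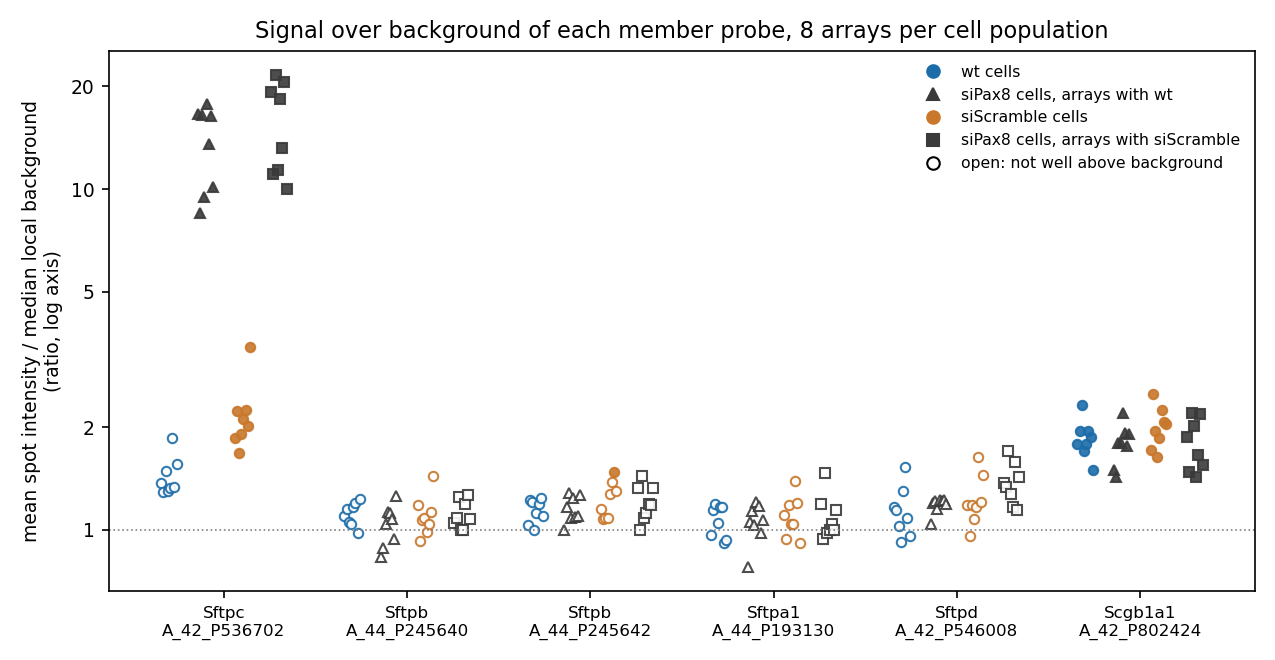
Mean spot intensity over median local background (ratio, log axis) of the 6 member probes on each array, with 8 arrays per cell population, where filled symbols are spots well above background and open symbols are not. *Sftpc* in si*Pax8* cells lies between 8.49 and 21.6, *Scgb1a1* is at 1.43 to 2.5 in every population, and the *Sftpb*, *Sftpa1* and *Sftpd* probes stay at 0.78 to 1.7.

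After normalization the *Sftpc* level stood in the order wt, siScramble, si*Pax8*. The log2 intensity in wt cells was 6.56, 6.63, 6.67 and 6.72 in replicates 1 to 4, a mean of 6.64 ± 0.07 (SD, n = 4). In siScramble cells it ranged from 6.91 to 7.08, with a mean of 6.98 ± 0.07 (SD, n = 4). In si*Pax8* cells the mean was 9.08 ± 0.10 on the arrays with wt and 9.15 ± 0.08 on those with siScramble (SD, n = 4 each). The 4 wt replicates were all below the 4 siScramble replicates, and both were far below the si*Pax8* replicates. The wt and siScramble RNAs were on different arrays, so the step between them was set by normalization and not within a hybridization, and it was not tested. The 2 sets of si*Pax8* values differed by less than their SD.

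**Figure D2:**
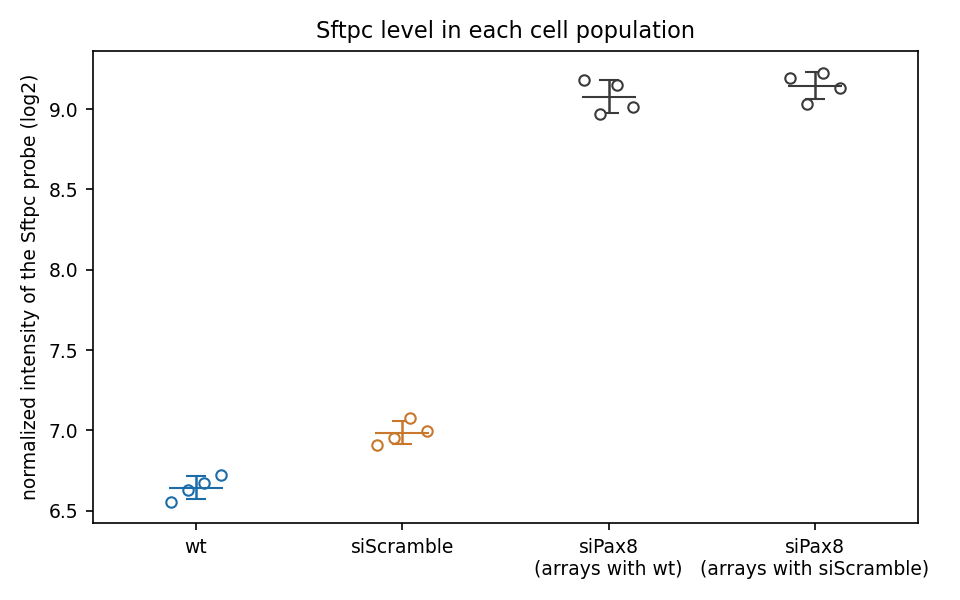
Normalized log2 intensity of the *Sftpc* probe in each cell population, with circles for the 4 replicates (mean of dye-swapped arrays) and bars for mean and SD. The means are 6.64 in wt, 6.98 in siScramble, and 9.08 and 9.15 in si*Pax8* cells.

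The log2 ratio of *Sftpc* in si*Pax8* over wt was 2.62, 2.34, 2.48 and 2.29 in replicates 1 to 4, with a mean of 2.43 ± 0.15 (SD, n = 4) or 5.40-fold. Over siScramble it was 2.28, 2.08, 2.15 and 2.14, with a mean of 2.16 ± 0.09 (SD, n = 4) or 4.47-fold. It was positive on all 16 arrays. In RNA of a whole culture, more cells with the transcript and more transcript per cell cannot be told apart. Because wt cells had no array well above background, the wt side gives only a bound, whose size depends on the normalization. After loess and quantiles of the average intensity the ratio was at least 6.30-fold, with each wt array held at no less than the lowest signal flagged well above background. The wt signal was itself no lower than that floor, so the value equals the loess-only ratio. It is larger than the 5.40-fold above and than the 4.96-fold from the arrays with si*Pax8* in Cy5 alone. The loess-only ratio over siScramble, where both sides were measured, was 4.05-fold.

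The size of the *Sftpc* ratio depended on how the background was treated. With no offset added in the background correction it was 11.6-fold over wt and 7.09-fold over siScramble. With the signals processed by the Agilent software it was 44.6-fold over wt and 14.9-fold over siScramble. With the authors' deposited log2 ratios it was 6.24-fold and 4.00-fold. Leaving out each replicate in turn kept the log2 ratio between 2.37 and 2.48 over wt and between 2.12 and 2.19 over siScramble. By dye, the mean log2 ratio over wt was 2.31 with si*Pax8* in Cy5 and 2.56 with si*Pax8* in Cy3, and over siScramble it was 1.98 and 2.34. Each of the 4 slides held a pair of arrays of each comparison, and the slide means lay between 2.35 and 2.50 over wt and between 2.01 and 2.32 over siScramble.

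In the order of all 41012 log2 ratios *Sftpc* took rank 1 over siScramble and rank 8 over wt. Next below it over siScramble came 2 probes without a gene name here, A_44_P215027 at 1.84 ± 0.10 and A_44_P315672 at 1.35 ± 0.12, and then *Or4f60b*, an olfactory receptor, at 1.19 ± 2.49, an SD larger than its mean (n = 4 each). Over wt the probes just above *Sftpc* were *Oas1a* at 2.93 ± 0.44, *Mx2* at 2.86 ± 0.53 and *Usp18* at 2.55 ± 0.25 (SD, n = 4 each), all interferon-stimulated genes. Those just below were *Ccl2*, a chemokine, at 2.39 ± 0.07, *Irf7*, an interferon regulatory factor, at 2.36 ± 0.09, and the unnamed A_44_P1021535 at 2.33 ± 0.10 (SD, n = 4 each). Rank 1 over siScramble was kept under every alternative processing tried except with si*Pax8* in Cy3 only, where the rank was 2, and over wt the rank ran from 2 to 11.

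*Sftpb*, the precursor of SP-B, has a pair of probes on the array, and neither gave a signal by the flag. The test of spot against local background was passed by A_44_P245642 on 4 of 8 arrays in wt and 5 of 8 in siScramble cells. In si*Pax8* cells A_44_P245642 passed it on 1 of 8 beside wt and 2 of 8 beside siScramble. A_44_P245640 passed on at most 1 of 8 in a population. A_44_P245640 (NM_138842) read 0.98 to 1.23 times background in wt cells, 0.93 to 1.44 in siScramble cells, and 0.83 to 1.26 in si*Pax8* cells, with no array well above background. A_44_P245642 of the same transcript read 1 to 1.24 times background in wt cells, 1.08 to 1.48 in siScramble cells and 1 to 1.44 in si*Pax8* cells, and it was well above background on 1 of 8 arrays in siScramble cells and on none elsewhere. All of these ranges overlap each other, so no fold is given. The log2 ratios of the first probe over wt were -0.16, -0.00, -0.02 and -0.01, with a mean of -0.05 ± 0.07, and over siScramble their mean was 0.01 ± 0.05 (SD, n = 4). Those of the second probe had means of 0.01 ± 0.02 and -0.02 ± 0.03 (SD, n = 4).

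The collectins were not measured well above background either. *Sftpa1* (A_44_P193130, NM_017329) read 0.91 to 1.19 times background in wt cells, 0.91 to 1.39 in siScramble cells and 0.78 to 1.47 in si*Pax8* cells. Its log2 ratio was -0.01 ± 0.07 over wt, with 2 replicates above 0 and 2 below, and -0.00 ± 0.03 over siScramble (SD, n = 4). *Sftpd* (A_42_P546008, NM_012878) read 0.92 to 1.53 times background in wt cells, 0.96 to 1.64 in siScramble cells and 1.04 to 1.7 in si*Pax8* cells. It was well above background on no array of either comparison. *Sftpd* passed the test against local background on 2 of 8 arrays in wt and 4 of 8 in siScramble cells. In si*Pax8* cells *Sftpd* passed on 3 of 8 beside wt and 6 of 8 beside siScramble. *Sftpa1* passed on at most 2 of 8 in a population. The log2 ratio of *Sftpd* over wt was 0.01, 0.11, -0.06 and 0.10 in replicates 1 to 4, a mean of 0.04 ± 0.08. Over siScramble that of *Sftpd* was 0.12, 0.08, 0.06 and 0.06, a mean of 0.08 ± 0.03 (SD, n = 4). The *Sftpd* values over siScramble were positive in 4 of 4 replicates but come from spots not well above background on either side.

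*Scgb1a1* was the other member with a signal by the software's flag, a weak one found in all populations. Part of its readings lay below the highest array 95th percentiles of the negative control spots, 1.93 in Cy3 and 1.54 in Cy5. Its probe (A_42_P802424, NM_013051) was well above background on 8 of 8 arrays in each population, at 1.5 to 2.32 times background in wt cells with a median of 1.83, and at 1.64 to 2.5 in siScramble cells with a median of 2.00. In si*Pax8* cells it read 1.43 to 2.2 with a median of 1.80 beside wt, and 1.43 to 2.21 with a median of 1.76 beside siScramble. The log2 ratio over wt was -0.16, -0.08, 0.05 and -0.02, with a mean of -0.05 ± 0.09, and over siScramble it was -0.14, -0.01, -0.15 and -0.03, with a mean of -0.08 ± 0.07 (SD, n = 4). It lay on both sides of 0 over wt, where the arrays with si*Pax8* in Cy5 had a mean of 0.08 and the swapped arrays one of -0.18. Over siScramble all 4 values were below 0.

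**Figure D3:**
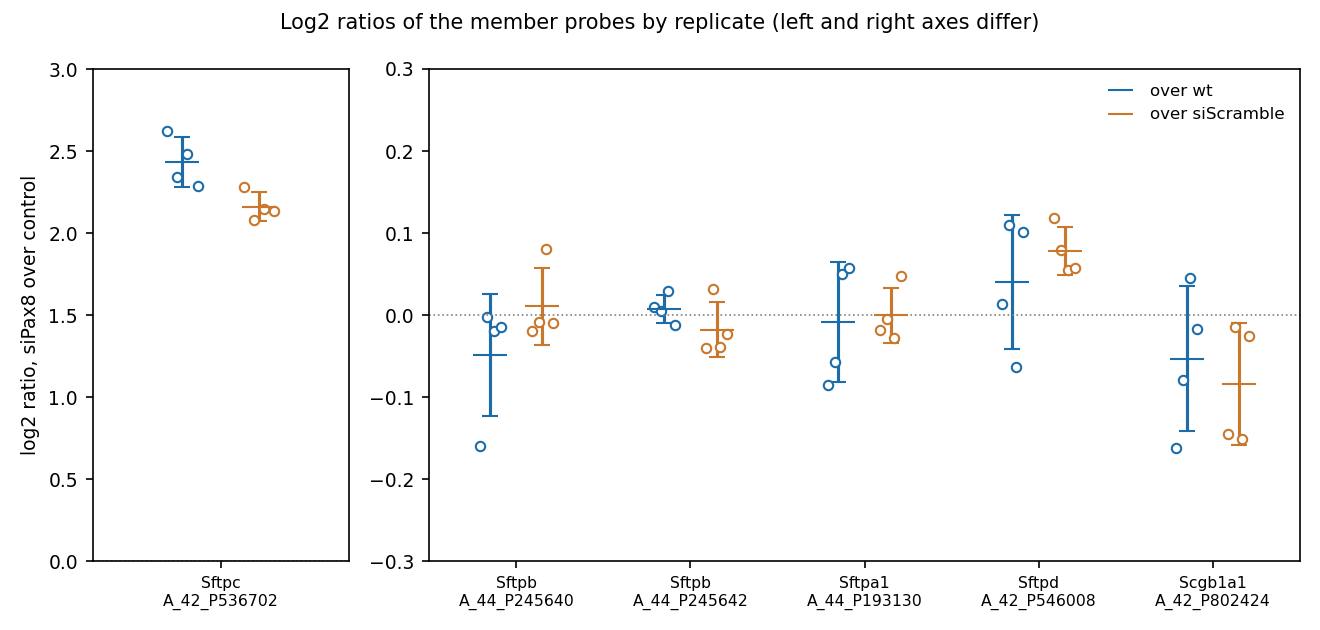
Log2 ratio of si*Pax8* over wt (blue) and over siScramble (orange) for each member probe, with circles for the 4 replicates and bars for mean and SD, on a separate axis for *Sftpc* at the left. *Sftpc* lies at 2.43 over wt and 2.16 over siScramble, and the means of the other 5 probes lie between -0.08 and 0.08.

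Of the 6 member probes 1, *Sftpc*, passed the threshold as higher in each comparison. Over all 41012 probes 7% were called higher and 8.19% lower over wt, and 1.18% higher and 0.849% lower over siScramble. The members were chosen on these ratios, so nothing is read from that count. With the replicate number as a block on the 8 arrays, the calls over siScramble rose from 831 to 1692 probes in all. The median log2 ratio of all probes was -0.00 in both comparisons.

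Because the members are read in lung as a group with their transcription factors, processing enzymes and marker genes, those were looked up in fixed lists. Each list count below is of genes called when every probe of the gene passed the limma adjusted p of 0.005 in the same direction. Over all probes 7% were called higher and 8.19% lower over wt, and 1.18% and 0.849% over siScramble. With dim probes left out, 6110 of 22177 probes passed over wt and 717 of 21276 over siScramble. The list counts were not tested against these shares and are not read as a response of lung genes. *Nkx2-1* (A_44_P442931), the factor named for these genes, was well above background on all arrays and did not pass the threshold in either comparison. Its log2 ratio over wt was 0.04, 0.16, 0.12 and 0.09, with a mean of 0.10 ± 0.05 (SD, n = 4; limma adjusted p = 0.0421), and over siScramble it was 0.41, 0.31, 0.12 and 0.23, with a mean of 0.27 ± 0.12 (SD, n = 4; limma adjusted p = 0.0165). The ratio was above 0 in 4 of 4 replicates of each comparison. Under 15 alternative processings *Nkx2-1* passed over siScramble in 4 and over wt in none, with adjusted p from 0.000176 to 0.183 and from 0.0167 to 0.306.

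Of 27 measured genes among 43 listed lung transcription factors, 6 were higher and 2 lower over wt, with a median log2 ratio of 0.06, and 2 were higher and 1 lower over siScramble, with a median of 0.03. Genes that a count takes in but that were not called the same way in both comparisons are named here and below after their values were seen. Over wt the 6 were *Foxa2*, *Cebpd*, *Klf2*, *Foxp1*, *Jun* and *Fos*, and the 2 were *Etv4* and *Foxj1*. *Cebpd*, a C/EBP factor induced by glucocorticoid in lung, was higher in both comparisons, by 0.27 ± 0.08 over wt (limma adjusted p = 0.000496) and 0.29 ± 0.07 over siScramble (limma adjusted p = 0.00295; SD, n = 4). *Jun*, a subunit of AP-1, was also higher in both, by 0.92 ± 0.05 over wt (limma adjusted p = 2.6e-07) and 0.47 ± 0.10 over siScramble (limma adjusted p = 0.00134; SD, n = 4). The calls over siScramble were lost for *Cebpd* without replicate 1, 2 or 3 (adjusted p of 0.0126, 0.0269 and 0.0214) and for *Jun* without replicate 1, 2 or 4 (adjusted p of 0.00613, 0.0153 and 0.00686). *Fos*, the partner of *Jun*, was higher over wt by 0.86 and lower over siScramble at -0.22 (limma adjusted p = 3.01e-07 and 0.00398). The latter call was lost without any 1 of the replicates (adjusted p of 0.0162 to 0.0296).

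*Foxa2*, a forkhead factor that acts with Nkx2-1 in lung, was called over wt at 0.28 ± 0.16 (limma adjusted p = 0.00434), a call lost without replicate 1, 2 or 3 (adjusted p of 0.00527, 0.0264 and 0.0281), and not over siScramble at 0.08 ± 0.26 (limma adjusted p = 0.741; SD, n = 4). *Foxa1* was well above background on no array, and *Gata6* on at most 1 of 8 in a population. *Cebpa* was well above background on 3 to 8 of 8 arrays in a population and *Cebpb* on all, and neither passed the threshold.

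For the processing and secretion of surfactant, 21 of 29 listed genes were measured, of which 17 were above background, 1 rose and 4 fell over wt (median log2 ratio of -0.04), and 1 rose and 2 fell over siScramble (median of -0.01). The 4 that fell over wt were *P2ry2*, *Hspa5*, the ubiquitin ligase gene *Nedd4l* and the syntaxin gene *Stx2*. *Ctsh*, cathepsin H, a protease that trims the precursors of SP-B and SP-C, was the gene that rose in both. Its log2 ratio over wt was 0.54, 0.60, 0.65 and 0.73 in replicates 1 to 4, with a mean of 0.63 ± 0.08 (SD, n = 4; limma adjusted p = 3.98e-06). Over siScramble it was 0.64, 0.71, 0.68 and 0.85, with a mean of 0.72 ± 0.09 (SD, n = 4; limma adjusted p = 0.000212). It was called over wt under 15 of 15 alternatives and over siScramble under 14, the exception being the signals processed by the Agilent software (adjusted p = 0.00857). *Napsa*, the aspartic protease napsin A that also cuts the SP-B precursor, was well above background on all arrays and was not called, at -0.03 ± 0.04 over wt and 0.11 ± 0.07 over siScramble (SD, n = 4). *Lamp3*, a protein of lamellar bodies, and *Slc34a2*, the phosphate carrier of type 2 cells, were well above background on no array.

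*P2ry2*, the purinergic receptor that triggers surfactant release, and *Hspa5*, the chaperone BiP of the endoplasmic reticulum, fell in both. *P2ry2* was at -0.51 ± 0.10 over wt (limma adjusted p = 2.6e-05) and -0.31 ± 0.05 over siScramble (limma adjusted p = 0.00166; SD, n = 4). *Hspa5* was at -0.19 ± 0.04 over wt (limma adjusted p = 0.00122) and -0.39 ± 0.03 over siScramble (limma adjusted p = 0.000442; SD, n = 4). *P2ry2* over siScramble was lost without any 1 of the replicates (adjusted p of 0.00705 to 0.0136), and *Hspa5* was lost over wt without replicate 2, 3 or 4 (0.00971, 0.00608 and 0.00833) and over siScramble without replicate 2 or 3 (0.00651 and 0.00516).

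Among genes of surfactant lipid 29 of 37 listed were measured, with 5 higher and 4 lower over wt and 1 higher over siScramble, and medians of -0.00 and 0.01. *Abca1*, a cholesterol exporter, was the gene higher in both, by 1.70 ± 0.03 over wt (limma adjusted p = 4.25e-08) and 0.68 ± 0.03 over siScramble (limma adjusted p = 0.000315; SD, n = 4), as the mean of 2 probes that each passed. The others higher over wt were *Chka*, *Pcyt1a*, *Scd2* and *Pla2g1b*, and the lower ones *Gpam*, *Pla2g4a*, *Pemt* and *Elovl1*. *Chka* and *Pcyt1a*, enzymes of phosphatidylcholine synthesis, were higher over wt by 0.34 and 0.42 (limma adjusted p = 6.59e-05 and 0.000119) and stood at 0.17 each over siScramble, where they were not called.

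**Figure D4:**
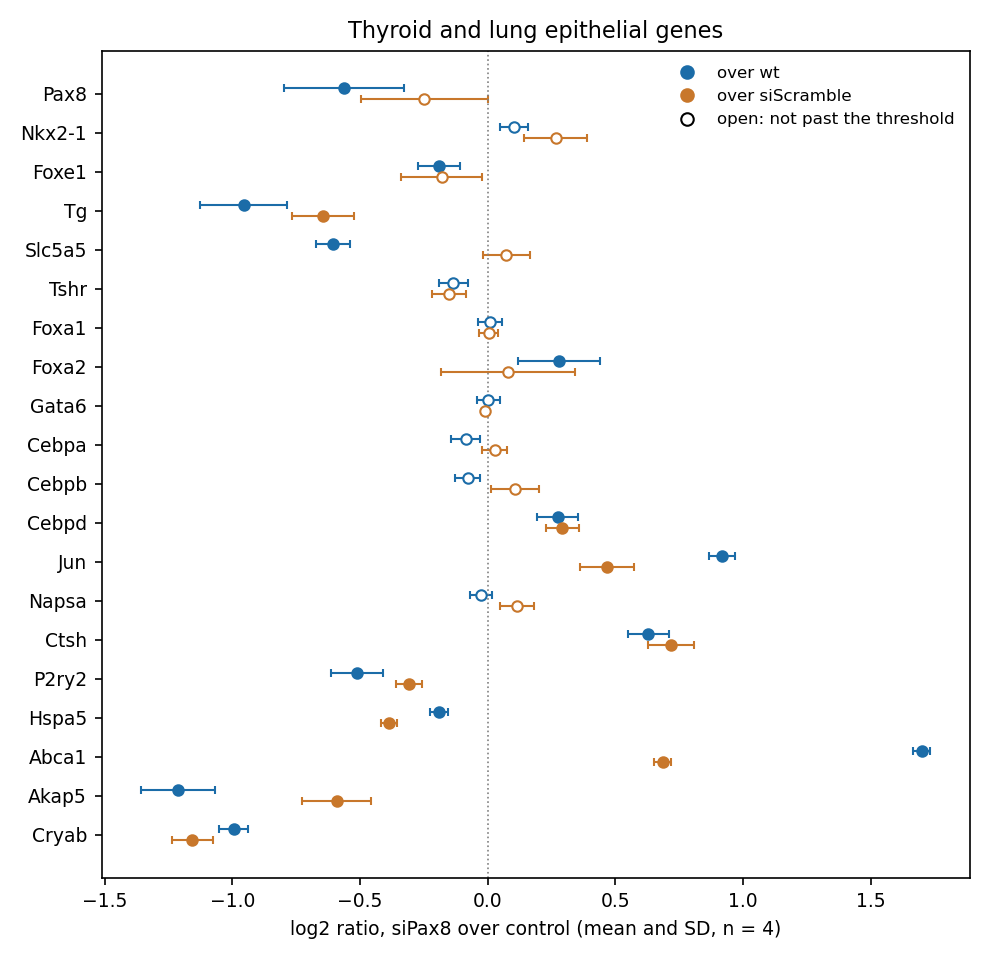
Log2 ratio (mean and SD, n = 4) of thyroid and lung epithelial genes in si*Pax8* over wt (blue) and over siScramble (orange), filled where the limma adjusted p passed 0.005. *Ctsh*, *Cebpd*, *Jun* and *Abca1* lie above 0 and filled in both comparisons, *Tg*, *P2ry2*, *Hspa5*, *Akap5* and *Cryab* below 0, and *Nkx2-1* is open in both.

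Some other markers of alveolar type 2 cells were not detected. Over all spots of an array, 54 to 60.8% in Cy3 and 52 to 59.1% in Cy5 were well above background. Undetected spots are thus common, and nothing is read from them about type 2 cells. Of 19 measured genes among 27 listed, 9 were well above background on all 8 arrays of at least 1 population and 7 on no array at all: *Lamp3*, *Slc34a2*, *Cldn18*, *S100g*, *Cxcl2*, *Lcn2* and *Retnla*. Over wt *Ctsh*, *Areg* and *Pi4k2b* rose and *Dlk1* and *Nkd1* fell, with a median log2 ratio of 0.02, and over siScramble *Ctsh* alone rose, with a median of 0.00. The summed linear intensity of the 19 genes ran from 67308 to 77659 in wt and from 67910 to 77756 in si*Pax8* cells beside it, and from 61294 to 72211 in siScramble and from 67545 to 79100 in si*Pax8* cells beside it. These ranges overlap in both comparisons.

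Of the type 1 list 11 of 15 genes were measured. *Akap5*, a kinase anchoring protein, was at -1.21 ± 0.15 over wt (limma adjusted p = 6.4e-07) and -0.59 ± 0.14 over siScramble (limma adjusted p = 0.00115), and *Cryab*, a small heat shock protein, was at -0.995 ± 0.056 (limma adjusted p = 1.91e-07) and -1.16 ± 0.08 (limma adjusted p = 4.18e-05; SD, n = 4 each). Both fell in both comparisons, and *Akap5* over siScramble was lost without replicate 2 or 3 (adjusted p of 0.0114 and 0.00923). Of the other type 1 genes *Ager*, *Aqp5* and *Emp2* were well above background on all 8 arrays of every population and were not called, *Hopx* was so on 7 of 8 arrays in si*Pax8*, 3 of 8 in wt and 2 of 8 in siScramble cells, and *Pdpn*, *Clic5* and *Igfbp2* on none. *Vegfa*, a growth factor, was higher over wt at 0.48 ± 0.07 (limma adjusted p = 0.000763) and stood at 0.33 ± 0.15 over siScramble, above 0 in 4 of 4 replicates but not past the threshold (limma adjusted p = 0.0617; SD, n = 4 each). Of the club and airway list 21 of 32 were measured, with 1 higher and 3 lower over wt (median of -0.00) and 1 higher over siScramble (median of 0.01), and none called the same way in both. Those lower over wt were *Aldh1a1*, *Hp* and *Cyp2f4* and the higher one *Ces1d*, which was well above background on no array, and *Gsta3* was higher over siScramble. The summed linear intensity of this list ran from 17618 to 18255 in wt and from 16407 to 17070 in si*Pax8* cells beside it. On the other arrays it ran from 17894 to 18537 in siScramble and from 16232 to 17263 in si*Pax8* cells. These ranges did not overlap in either comparison, and neither did those of the thyroid, lung transcription factor and type 1 lists. Type 1 sums were 36873 to 40505 in si*Pax8* and 59074 to 60786 in wt cells. The median log2 ratio of the type 1 list was 0.01 over wt and 0.01 over siScramble. Lung factor sums were higher in si*Pax8* cells, at 47033 to 48427 against 37102 to 38625 in wt. Such a gap was thus no trait of the club list, and its part in the *Scgb1a1* values was not tested. Sums are weighted to the brightest genes, so these gaps are not read on their own as shifts of whole lists. *Scgb3a1*, a secretoglobin related to *Scgb1a1*, was well above background on all arrays at 0.02 over wt and -0.01 over siScramble, while *Scgb3a2* reached the flag on at most 1 of 8 arrays in a population. No gene of the 14 measured relatives of the members, which include the collectins *Mbl1* and *Mbl2* and the BRICHOS domain genes *Itm2a*, *Itm2b* and *Itm2c*, was called in either comparison. Of them 1 over wt and 3 over siScramble had an unadjusted limma p below 0.05 in every probe. Over all 41012 probes 13852 over wt and 8375 over siScramble had such a p, so nothing is read from these counts.

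These list counts rested on all 4 replicates. With 1 replicate left out at a time, the genes lower over wt numbered 2 to 4 for processing and secretion (2 without replicate 2, 3 or 4) and 1 to 4 for lipid (1 without replicate 2, 3 or 4), and the lipid genes higher over wt numbered 3 to 5. The lung transcription factors higher over siScramble numbered 0 without replicate 1 or 2 and 1 without replicate 3 or 4. The calls of *Gsta3* over siScramble and of *Fos* as lower were lost in each case, that of *Vegfa* over wt without replicate 3, and that of *Ces1d* without replicate 2, 3 or 4, while 1 of the genes lower in the type 2 list was lost without replicate 2, 3 or 4.

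Most thyroid genes fell over wt. Of 13 measured thyroid genes among 14 listed, 10 fell and 1, *Slc26a4*, rose over wt, with a median log2 ratio of -0.56, and 1 fell over siScramble, with a median of -0.18. *Tg*, thyroglobulin, was at -0.96 ± 0.17 over wt (limma adjusted p = 5.06e-06) and -0.65 ± 0.12 over siScramble (limma adjusted p = 0.000598), the latter lost without replicate 2 or 3 (adjusted p of 0.00874 and 0.00516). *Slc5a5*, the iodide carrier, was at -0.61 over wt (limma adjusted p = 3.36e-06) and at 0.07 over siScramble, where it was not called (limma adjusted p = 0.367). *Foxe1* was at -0.19 over wt (limma adjusted p = 0.00414), a call lost without replicate 2, 3 or 4 (adjusted p of 0.0253, 0.0209 and 0.0238), and at -0.18 over siScramble (limma adjusted p = 0.118), and *Tshr* at -0.13 and -0.15, not called. Whether the fall differed between the comparisons was not tested. Markers of other cell types, 11 measured of 19 listed, had a summed intensity of 1418 to 1477 in wt, 1387 to 1417 in siScramble and 1398 to 1442 in si*Pax8* cells, with *Itgam*, *Col3a1*, *Pecam1* and *Pth* well above background on no array and *Cd68*, *Col1a2*, *Des* and *Calca* on all 8 arrays of every population. Of this list *Cd68* was higher (0.30) and *Des* lower (-0.15) over wt, and none was called over siScramble. The *Cd68* call was lost without replicate 3 or 4, and the *Des* call without any 1 of the replicates.

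The named genes whose level followed that of *Sftpc* most closely over the 32 array channels were sought among 5218 probes well above background on every si*Pax8* array. They were *C1qtnf1* (Pearson r of 0.99), *Scnn1g* (0.98), *Ccn2* (0.97), *Col16a1* (0.97) and *Jak2* (0.97). By rank the agreement was lower, with Spearman rho of 0.93, 0.78, 0.88, 0.92 and 0.88 in the same order. The filter used the si*Pax8* channels, where *Sftpc* is high, so genes bright only in controls were left out. The channels are 16 arrays of 4 replicates a comparison, share RNA and fall into si*Pax8* and control sets, so r is a description of the 2 levels. *Scnn1g*, the gamma subunit of the epithelial sodium channel that clears fluid in lung, was at 1.35 ± 0.05 over wt and 1.18 ± 0.07 over siScramble, and *C1qtnf1*, a secreted C1q-like protein, at 1.21 ± 0.05 and 0.90 ± 0.06 (SD, n = 4). *Col16a1*, a collagen chain, was at 0.95 ± 0.17 and 0.84 ± 0.03, *Jak2*, a cytokine receptor kinase, at 0.64 and 0.47, and *Ccn2*, a matrix-associated growth factor, at 0.45 and 0.36. The same r with *Sftpc* was -0.15 and -0.03 for the *Sftpb* probes, -0.08 for *Sftpa1*, 0.44 for *Sftpd* and -0.43 for *Scgb1a1*. The first 4 came from probes near background, and that of *Scgb1a1* came from the weak signal described above.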

How the data were processed

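The members and gene lists were chosen with earlier results of these data known. The deposited scanner files of 16 arrays hold intensity values extracted by the authors with Feature Extraction 10.1.1.1 (header build rn4), and a deposited table holds log2 ratios of control over si*Pax8*, with centring unstated (column medians of -0.000736 to 0.00828). Mean intensity was corrected by normexp (offset 50) on the median background, normalized by loess and quantiles, then averaged per probe and over both dye orientations within each replicate, using R 4.3.3 and limma 3.58.1. lmFit and eBayes tested 4 log2 ratios per probe and comparison, with Benjamini-Hochberg adjustment over 41012 probes and the study's threshold of 0.005. In simulated data 67% of changes of 0.5 (log2) were recovered in each comparison. RefSeq accessions (GRCr8) named 10768 probes, a further 294 took names from the study, and 29950 stayed unnamed. Named genes were the members, the thyroid markers, 7 lung factors, list genes called the same way in both comparisons, the probes next to *Sftpc* in rank and the 5 most correlated with it. Same-numbered dye orientations deviated together (correlations of 0.118 to 0.511), and those of the 2 comparisons had correlations of 0.394, 0.169, 0.044 and 0.562, which leaves unsettled whether they share samples, so no pairing across comparisons was used. The number of arrays limits the precision. Alternatives were no offset, Agilent's processed signals, other normalizations, the deposited ratios, 1 dye orientation, replicate or slide blocks, 1 fit for both comparisons, leaving out dim probes and leaving out each replicate. The values of 1 thyroid marker are not reported here.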

Additional observations from a re-analysis of the deposited data

How the results depend on the processing

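The sign of the *Sftpc* ratio held under every alternative, and its size followed the background treatment. Of 6228 probes past the threshold over wt and 831 over siScramble, 1342 and 84 were past it with no offset, and 1754 and 29 with the signals processed by the Agilent software. With si*Pax8* in Cy5 only the count over siScramble was 208, and with si*Pax8* in Cy3 only the counts were 3460 over wt and 3470 over siScramble. With the replicate block on 8 arrays the count over siScramble was 1692, with slide as the block 2409, and with both comparisons in 1 fit 1728. Leaving out 1 replicate gave 3351 (without replicate 3) to 6931 (without replicate 1) probes over wt and 116 (without replicate 2) to 367 (without replicate 4) over siScramble. The cause of these differences was not tested. The other alternatives kept the counts within 1.5 times. In si*Pax8* cells the *Sftpb*, *Sftpa1* and *Sftpd* probes read 0.78 to 1.7 times background, with no array well above background. None thus rose to the 8.49 to 21.6 times background of *Sftpc*. Their signal was too near background for a fall, or for a rise that stays near background, to be seen or excluded.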
